A study of Drosophila melanogaster with 2 samples.

Results

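E(var)3-9 is a zinc-finger protein of Drosophila melanogaster, named after its effect on position-effect variegation, the patchy silencing of a gene placed beside heterochromatin. Introns of fly genes often hold enhancers and other regulatory DNA, and the first introns of developmental genes are best known for it. Here the sites of E(var)3-9 that lie deep inside introns, away from every annotated start of transcription, are described. The authors thresholded regions by their irreproducible discovery rate (IDR), which weighs ranks between replicates, and 3438 IDR peaks remained. Of these, 624 met the rule, or 18.2% (95% Wilson interval 16.9 to 19.5%, which covers the counting of regions only). A region was counted when its summit lay inside a gene, in no exon of any transcript and more than 2000 bp from the nearest transcription start site (TSS) of any gene in the Ensembl annotation of assembly dm6, with transposable elements left out. The rule used position and no measured level.

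Chromatin was precipitated with an anti-GFP antibody from whole embryos of both sexes pooled, 0 to 24 h old, of a transgenic fly line that stably makes E(var)3-9 with green fluorescent protein at its C-terminus. The 2 biological replicates, numbered 2 and 3 by the submitters, carry the same transgene and form a single group. All cell types and stages of embryogenesis are therefore mixed, and an untagged line or an input control is not analysed here. The values are the caller's signal for each region, a score with no stated scale. Each replicate's list holds 30000 regions and the joint list 24963, of which the IDR peaks are the strongest 3438. Read depth is unknown.

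The 4 summits printed here, all among the 5 strongest, show what such sites look like. Each stretch runs 100 bases to either side of the summit on the plus strand of dm6 and was read from the RefSeq copy of the Release 6 genome. Capitals mark the 5-letter word CAGTG, or CACTG where the word lies on the minus strand. That word was chosen after its frequency in these data had been seen, and its counts are given further below. The Tlk site, chrX:3742136-3742336, lies in the gene of Tousled-like kinase, an enzyme of chromatin assembly, in an intron that is not one of the canonical transcript. The CG32486 site, chr3L:3060685-3060885, lies in the first intron of that gene and holds no copy of the word. The tara site, chr3R:16236879-16237079, lies in the single intron of taranis, a gene of the trithorax group. The aos site, chr3L:16480463-16480663, lies in the first intron of argos, which encodes a secreted inhibitor of the epidermal growth factor receptor, and it has a copy of the word to either side of its summit.
Tlk: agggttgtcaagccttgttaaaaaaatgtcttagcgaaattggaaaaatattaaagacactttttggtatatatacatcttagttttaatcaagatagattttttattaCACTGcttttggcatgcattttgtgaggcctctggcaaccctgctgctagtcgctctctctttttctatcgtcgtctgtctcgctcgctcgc
CG32486: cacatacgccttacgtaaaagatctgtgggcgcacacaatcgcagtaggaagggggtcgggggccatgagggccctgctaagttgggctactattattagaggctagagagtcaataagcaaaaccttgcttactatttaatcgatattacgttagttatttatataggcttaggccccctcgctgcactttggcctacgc
tara: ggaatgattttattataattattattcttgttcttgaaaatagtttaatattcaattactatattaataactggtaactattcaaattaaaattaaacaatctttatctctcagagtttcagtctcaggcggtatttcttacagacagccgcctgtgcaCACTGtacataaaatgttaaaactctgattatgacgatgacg
aos: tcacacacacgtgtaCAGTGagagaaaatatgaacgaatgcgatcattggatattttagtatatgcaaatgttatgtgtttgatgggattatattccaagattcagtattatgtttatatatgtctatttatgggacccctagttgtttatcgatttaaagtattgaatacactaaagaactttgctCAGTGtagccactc

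The deep intronic peaks were on the weaker side of the IDR peaks. Their median joint signal was 81.1, with quartiles of 67.2 and 109 and a maximum of 406, against a median of 89.3 and a maximum of 1206 over all IDR peaks. IDR peaks within 500 bp of a TSS, called promoter peaks, had a median of 94.2, intronic peaks 500 to 2000 bp from a TSS 89.8, and intergenic peaks 82.5. Deep intronic peaks therefore stood close to intergenic peaks in strength. Their share rose as the joint signal fell. They made up 10.3% of the 688 strongest IDR peaks (71 peaks), 17.2% of ranks 689 to 1375, 18.2% of ranks 1376 to 2063, 21.1% of ranks 2064 to 2750 and 24.0% of ranks 2751 to 3438 (165 peaks). Among the 21525 joint regions below the IDR threshold, 31.6% met the same position rule. That is close to the share of all bases of the chromosome arms that meet the rule, 31.0%, and each IDR share above lies below it.

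Both replicates placed a similar share of their strongest regions deep in introns. With the rule applied to the 3438 strongest regions of each list, replicate 2 had 613 (17.8%) and replicate 3 had 678 (19.7%), a mean of 18.8% ± 1.34 (SD, n = 2). The joint list was made from both replicates and cut by IDR, so recovery of its peaks in each replicate follows in part from that choice. Within the joint set, 526 of the 624 summits (84.3%) had a summit within 150 bp among the strongest 3438 of replicate 2, and 490 (78.5%) among those of replicate 3. Both held for 402 (64.4%, interval 60.6 to 68.1%), and 10 were in neither. The background over all IDR peaks was 69.5%, with 72.1% at promoter peaks, 69.5% at intronic peaks nearer a TSS and 64.3% at intergenic peaks.

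The lower figure stood beside the lower signal of these peaks, and its cause was not tested. Joint rank comes from the same 2 replicates, so a fall of recovery with rank is in part built in. At matched joint rank the deep intronic peaks were recovered at least as often as the other IDR peaks: all 71 of 71 against 99.2% in ranks 1 to 688, 85.6% against 81.7% in ranks 1376 to 2063, and 17.0% against 16.6% in ranks 2751 to 3438. In the complete replicate lists, 609 of the 624 (97.6%) were matched in both, against a background of 96.0% of IDR peaks. Of the rest, 4 had no match in replicate 2 and 11 none in replicate 3, and none lacked both. The strongest of these lay in mbc, a Rac activator needed for myoblast fusion, with a joint signal of 83.1 and 66.0 in replicate 2. The next was in shot, which encodes a spectraplakin that links actin and microtubules, with a joint signal of 79.3 and 24.4 in replicate 3. The third was in dnt, a receptor related to Derailed, with a joint signal of 75.1 and 59.4 in replicate 2. Another IDR summit lay 200 bp from the shot summit, 245 bp from that in dnt and 1204 bp from that in mbc.

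Signal was higher in replicate 2 at 515 of the 609 peaks matched in both (84.6%), as it was at 80.6% of all matched IDR peaks. The median log2 ratio of replicate 2 to replicate 3 was 0.49 (SD 0.59 over the peaks). The median signal was 49.0 in replicate 2 and 34.8 in replicate 3. Across the 609 peaks the 2 signals had a Spearman rho of 0.524, and 0.610 across the 3302 matched IDR peaks, values that describe regions called in the same 2 libraries. The summits of the 2 replicates lay a median of 37 bp apart, against 34 bp over all IDR peaks.

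**Figure D1:**
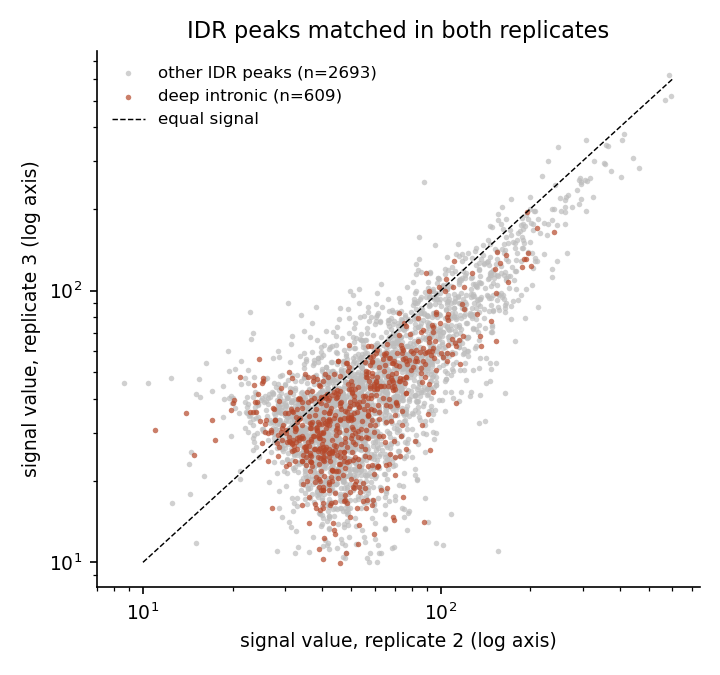
Signal value of each IDR peak in replicate 2 (horizontal, log axis) and replicate 3 (vertical, log axis), for 609 deep intronic peaks in red and 2693 other IDR peaks in grey, with the line of equal signal dashed. The deep intronic peaks fill the lower part of the cloud and lie mostly below the line.

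Deep intronic sequence was sparsely occupied for its size. The bases that meet the position rule, called qualifying sequence, come to 41.4 Mb, or 31.0% of the arms. They held 15.1 summits per Mb, against 25.7 IDR peaks per Mb over all arms, a ratio of 0.586. Replicate 2 alone gave 0.576 and replicate 3 alone 0.637 (mean 0.607 ± 0.0432, SD, n = 2). The density fell with distance from the TSS, from 22.1 per Mb at 2 to 3 kb (118 summits) to 21.3 at 3 to 5 kb, 18.7 at 5 to 10 kb, 11.2 at 10 to 20 kb and 4.29 beyond 20 kb (37 summits). The median distance was 5499.5 bp, while that of the qualifying bases themselves was 7999 bp. By replicate the medians were 5403 and 5258 bp.

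First introns were the densest. Counted on each host gene's canonical transcript, 564 of the summits lay in an intron of that transcript, and the other 60 lay only in introns of other transcripts or in the gene span outside it. The first intron held 247 of the 564 (43.8%, interval 39.8 to 47.9%) but 25.9% of the qualifying bases, at 25.1 summits per Mb. The second introns held 186 at 17.9 per Mb, the third introns 65 at 13.9 per Mb, and introns after the third 66 at 5.03 per Mb, where 34.6% of the qualifying bases lie. First introns took 44.2% in the list of replicate 2 and 44.7% in that of replicate 3 (mean 44.5% ± 0.323, SD, n = 2). Peaks in first introns also had a higher median signal, 86.4, than those in the second (79.1), the third (71.6) and later introns (78.3).

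**Figure D2:**
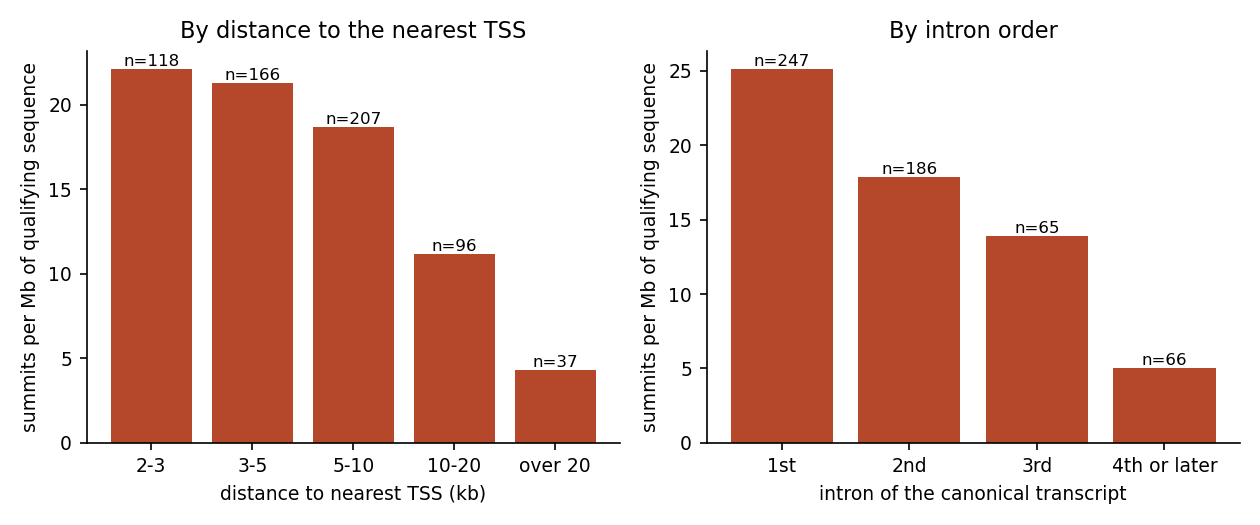
Deep intronic summits per Mb of qualifying sequence, by distance to the nearest TSS in kb (left) and by the intron's order in the canonical transcript (right); the bars start at 0 and carry the number of summits. The density falls from 22.1 at 2 to 3 kb to 4.29 beyond 20 kb, and from 25.1 in first introns to 5.03 in introns after the third.

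First introns were denser than later ones in each range of intron length. The host introns had a median length of 15778.5 bp, with quartiles of 8101.5 and 31127 bp and a range of 679 to 117679 bp, close to the length-weighted median of qualifying sequence, 17329 bp. In introns of up to 5 kb the density was 28.3 per Mb in first introns and 7.10 in later ones. The pair was 26.0 and 13.4 at 5 to 10 kb, 29.9 and 17.6 at 10 to 20 kb, 21.4 and 13.2 at 20 to 50 kb, and 19.5 and 7.39 beyond 50 kb. With the intron cut into 3 equal parts, 176 summits lay in the 5′ part, 206 in the middle and 182 in the 3′ part. The position rule leaves out sequence near a TSS, which can include the start of a first intron. Qualifying bases were not counted in each part, so these counts do not show whether density was even along the intron. The nearest exon was a median of 2883 bp away, and 10 summits lay within 200 bp of one. The nearest TSS belonged to the host gene for 399 summits (63.9%).

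The 624 summits fell in 385 genes, of which 377 are protein-coding. These are 9.15% of the 4122 protein-coding genes with any qualifying sequence. In the replicates alone there were 370 and 418 such hosts, of which 303 were shared (81.9% of those of replicate 2 and 72.5% of those of replicate 3). A single summit was found in 251 genes, a pair in 76, 3 summits in 26, and 4 or more in 32. Some lay close together, since 105 of the 624 had another IDR summit within 1000 bp. Hosts were long, with a median span of 33.8 kb against 8.86 kb for all genes with qualifying sequence. A promoter peak was present at 109 hosts (28.9%), against a background of 21.6% of the 4122 genes and 20.9% of the genes that were not hosts. Since the share of hosts itself grows with qualifying length, the pairs were also read at like lengths. They were 25.9% of hosts against 22.4% of other genes at up to 5 kb of qualifying sequence, 31.4% against 19.7% at 5 to 20 kb, 26.7% against 12.9% at 20 to 50 kb, and 30.3% against 10.3% above 50 kb. The remaining 268 hosts had no promoter peak.

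In 10 protein-coding genes there were 5 or more summits. Scribbler (sbb), a nuclear regulator of patterning, held 8, with joint signals of 62.2 to 206 over 37.0 kb of its 79.1 kb span, 6 of them in both replicates' strongest regions. Frizzled (fz), a Wnt receptor, held 6 spread over 65.5 kb, with signals of 64.0 to 170. Roadkill (rdx), an adaptor that marks the Hedgehog effector Ci for degradation, held 6 with signals of 60.5 to 138. The gene tara held 5, with signals of 97.0 to 332, all 5 recovered in both replicates. Simjang (simj), a subunit of the NuRD chromatin complex, also held 5 recovered in both, packed into 5.21 kb, with signals of 66.2 to 286. Trithorax (trx), a histone methyltransferase that keeps homeotic genes active, held 5 with signals of 63.8 to 307, of which 2 were recovered in both. The genes shn, Snoo, kirre and ush also held 5 each. These counts are not scaled to length, and the mean density is 15.1 summits per Mb of qualifying sequence. Of such sequence kirre has 268 kb, fz 82.4 kb, Snoo 80.3 kb and sbb 46.8 kb, while simj has 19.5 kb and trx 7.98 kb. A high count in a long gene such as kirre can therefore go with its length alone. Of all 10, sbb and rdx had a promoter peak.

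**Figure D3:**
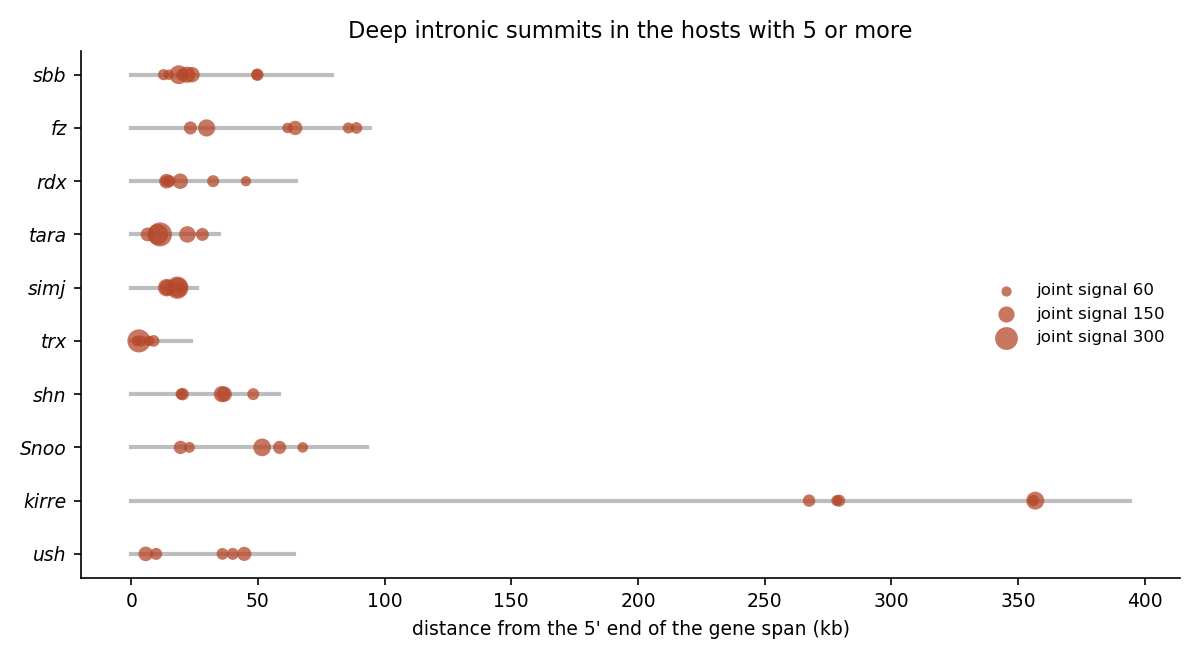
Position of the deep intronic summits along the 10 protein-coding genes that hold 5 or more, in kb from the 5′ end of the gene span (grey line), with the area of each red point scaled to joint signal. The summits of trx lie in the first part of the gene, those of fz and sbb are spread along it, and all 5 of kirre lie in its 3′ part.

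The 12 strongest summits were high in both replicates. They were picked by joint signal from a list made from both replicates, so this largely follows from the choice. The Tlk summit had a joint signal of 406, with 240 in replicate 2 and 165 in replicate 3. That of CG32486 had 389, with 195 and 194. The gene CG12769 followed with 387 (210 and 170). The tara summit had 332 (196 and 137) and the aos summit 324 (201 and 123). Every one of these ranked among the 150 strongest regions of both replicates. Grunge (Gug), the fly Atrophin corepressor, had 323 (194 and 131), and Raf, the kinase of the MAP kinase cascade, had 317 (190 and 131). The strongest trx summit had 307 (166 and 135) and CG46321 had 307 (187 and 122). The last of the 12 were CG34417 with 292 (154 and 139), simj with 286 (158 and 126) and CG13894 with 275 (168 and 108). Replicate 2 was the higher in all 12, and 7 of the 12 lay in first introns.

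The extremes of distance and intron length held both weak and strong summits. The 2 summits farthest from a TSS lay in homothorax (hth), a homeodomain cofactor of the Hox proteins, at 49802 bp with a joint signal of 64.6 and at 47690 bp with 86.6. Their signals were 40.7 and 47.4 in replicate 2 and 23.7 and 24.5 in replicate 3. The next, in mamo, a zinc-finger gene needed in the germ line, lay 42338 bp from a TSS and was far stronger, at 203 (103 and 99.5). The longest host intron, 117679 bp in kirre, a cell adhesion gene of myoblast fusion, held all 5 summits of that gene, with joint signals of 186, 88.7, 84.4, 74.6 and 70.1. At the threshold, the members nearest to it lay in RhoU at 2002 bp with a joint signal of 60.8, in hiw at 2009 bp with 121 and in CHES-1-like at 2009 bp with 86.8. Just outside it were summits in drn at 2000 bp (62.3), RhoGAP18B at 1987 bp (139) and fru at 1983 bp (121).

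Genes were also grouped by role. Ecdysone regulators, signalling genes and developmental transcription factors other than homeodomain genes had more summits per length of qualifying sequence than all protein-coding genes. Their shares of hosts were also higher, but that share depends on qualifying length. Among all protein-coding genes it was 16.7% at 5 to 20 kb of qualifying sequence and 30.2% at 20 to 50 kb. The median over these genes was 1.62 kb. Density also depends on position, since over all members it fell from 22.1 per Mb at 2 to 3 kb from a TSS to 4.29 beyond 20 kb. It fell with intron order too. The lists were not compared at like lengths, TSS distances or intron order, so their shares of hosts and their densities are given as description only. Whether the differences go with gene role was not tested. Over all protein-coding genes the density was 15.2 per Mb and 9.15% were hosts. Of 15 ecdysone response regulators with qualifying sequence, 10 were hosts (66.7%), with 21 summits at 38.4 per Mb. Of these summits 52.4% were recovered in both replicates, against 64.8% over all protein-coding genes. The strongest were in Hr4, a nuclear receptor of the ecdysone cascade (215, with 132 and 82.2 in the replicates), in ImpL2, a secreted insulin-binding protein (153, with 72.2 and 82.9), and in Eip75B, a nuclear receptor (131, with 73.1 and 47.8). Signalling genes gave 18 hosts of 73 (24.7%), with 38 summits at 32.6 per Mb, of which 68.4% were recovered in both replicates. Besides aos, mastermind (mam), a coactivator of Notch, had 248 (153 and 97.9), and kirre had 186 (106 and 81.9).

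Developmental transcription factors other than homeodomain genes gave 16 hosts of 60 (26.7%), with 40 summits at 31.3 per Mb, and 85.0% of those summits were recovered in both replicates. The strongest were in CHES-1-like, a forkhead gene (208, with 89.1 and 116), sbb (206, with 136 and 67.9) and grainy head (grh), a regulator of epithelia (169, with 84.1 and 79.2). Homeodomain genes gave 5 hosts of 46 (10.9%) and 10 summits at 13.6 per Mb, led by hth (127), Abd-B (123) and ct (113). Chromatin and insulator protein genes also gave 5 hosts of 46 (10.9%), a share near that of all genes. Their 9 summits came to 50.2 per Mb over only 0.179 Mb of qualifying sequence, and 5 of the 9 were in trx alone. Next to trx stood JIL-1, a histone H3 kinase (218, with 153 and 65.5), and the deacetylase HDAC4 (147, with 88.4 and 53.9).

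In 3 further lists the density was below that of all genes. Their densities and shares of hosts carry the same limits of position and qualifying length. Axon guidance and cell adhesion genes gave 16 hosts of 92 (17.4%) and 37 summits at 10.9 per Mb, with dlp, a glypican, at 173 and Fas3, a homophilic adhesion protein, at 122. Ion channel and synaptic genes gave 6 hosts of 73 (8.22%) and 7 summits at 4.41 per Mb, led by dnc, a cyclic AMP phosphodiesterase, at 125, Ca-alpha1T at 86.1 and Sh at 68.6. RNA-binding genes gave 9 hosts of 37 (24.3%) and 11 summits at 7.58 per Mb, with how at 142, bol at 107 and Rbfox1 at 93.5. Some genes stand in 2 lists (kirre, pnt and tai), and the lists were not tested against each other.

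**Figure D4:**
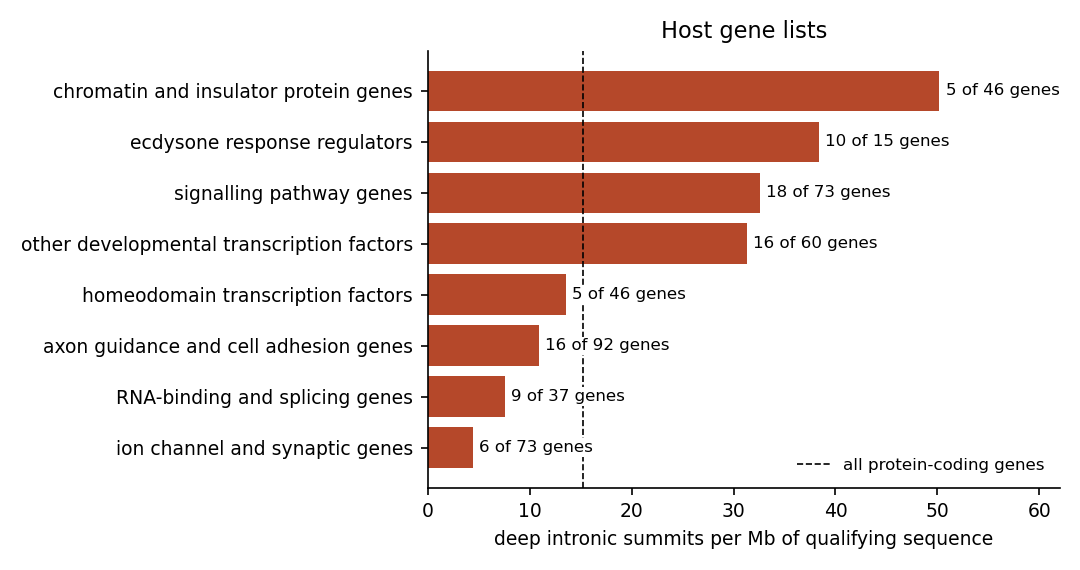
Deep intronic summits per Mb of qualifying sequence for 8 lists of genes, with the density over all protein-coding genes (15.2) dashed and the number of hosts among genes with qualifying sequence beside each bar. The chromatin (5 of 9 summits in trx), ecdysone, signalling and developmental factor lists lie above the line, and homeodomain, axon guidance, RNA-binding and ion channel lists below it.

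By arm, the X had the most, with 162 summits at 20.2 per Mb of qualifying sequence, 1.34 times the number its qualifying length would hold at the mean density. The arms 2L, 2R, 3L and 3R held 99, 87, 130 and 146, or 1.01, 0.809, 1.07 and 0.863 times that number.

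Deep intronic summits lay in sequence poor in G and C. GC content within 100 bp was 33.8%, against 39.2% in windows centred 1000 bp to either side and 40.5% on a grid over qualifying sequence, and promoter peaks had 33.5%. Of 19 motifs searched on both strands, TATAAA (the TATA box letters) was present at 41.2% of summits and 24.9% of flanks, while promoter peaks had 42.9%. The DREF word TATCGATA was at 5.56% of promoter peaks and 0.16% of deep intronic summits, which is 1 peak. The M1BP word GGTCACAC was at 5 summits (0.801%), at 1.94% of promoter peaks, at 0.278% of grid points and in 0 of 1164 flanking windows. The homeodomain word TAATTA was at 20.5% of summits and 14.1% of flanks, while promoter peaks had 20.7% and all IDR peaks 19.6%. No motif of the list marked most of the summits.

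A word outside the list did. Among all 2080 words of 6 letters, the 12 with the largest excess at summits over flanks are made of A and T alone, and the next was AGTGTA (23.6% against 7.47%), followed among words with G or C by 4 that hold CAGTG on either strand, led by ACAGTG (21.8% against 7.56%). CAGTG, on either strand, was within 100 bp of 335 summits (53.7%, interval 49.8 to 57.6%), of 25.8% of flanks and of 28.2% of grid points. In the replicates' own deep regions it stood at 52.2% and 53.2% (mean 52.7% ± 0.707, SD, n = 2). Among the members within the 860 strongest IDR peaks it was at 65.0%, among the others at 51.4%, and in 2382 of the 6809 deep intronic joint regions below the IDR threshold at 35.0%. Promoter peaks had it at 42.1%, near intronic peaks at 50.4% and intergenic peaks at 49.6%. The word CAGTG was picked from these very peaks, so its excess is a description and no test is given, and a match is not shown to be a binding site.

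Its place and strand were patterned. Copies were fewer at the summit itself than at 40 to 110 bp from it. In that zone, counted on the strand that puts CAGTG to the right of the summit or CACTG to the left, there were 243 copies, or 2.74 per kb, against 163 (1.84 per kb) the other way round. Beyond 200 bp the rate was 0.887 per kb and strand. The counts were 232 and 154 in replicate 2's own list and 238 and 165 in replicate 3's. Those lists largely hold the same regions, so their counts are no separate check. The zone and orientation were set after the word had been picked from these peaks. At promoter peaks the counts were 414 and 436. Copies stood on both sides of 79 summits (12.7%), against 4.64% of promoter peaks. Place and strand were not counted at intronic peaks nearer a TSS or at intergenic peaks, which held the word at 50.4% and 49.6%. The pattern is therefore not shown to be particular to deep intronic peaks. The aos site printed above has one on each side, at -83 and 89 bp, but only the right-hand one is in this orientation, while the tara site has a copy at 61 bp in the opposite one.

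**Figure D5:**
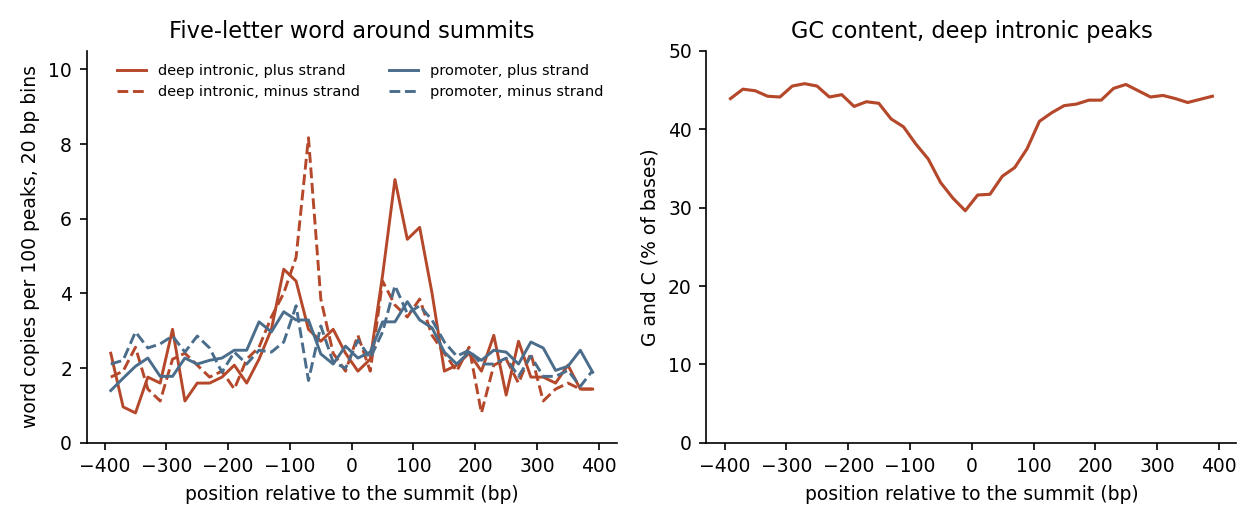
Left, copies of the word per 100 peaks in 20 bp bins by position from the summit, for deep intronic peaks (red) and promoter peaks (blue), on the plus strand (solid) and minus strand (dashed); right, GC content of deep intronic peaks by position. The red lines peak at 8.17 per 100 peaks on the minus strand left of the summit and at 7.05 on the plus strand right of it, and GC is lowest, 29.6%, just beside the summit.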

How the data were processed

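Whole-embryo ChIP-seq of E(var)3-9-GFP was analysed from region lists in assembly dm6. Each region has a signal value, a score from the authors' caller, as deposited, and the deposited summit offset gave each summit. Per the labels' protocols, chromatin was sonicated to fragments of 200 to 800 bp. The sources used here name no aligner, caller or IDR threshold, and the deposited lists carry no counts, so no read-based error can be given.

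Genes came from Ensembl release 115 (18164 on 6 arms). Hosts were the shortest protein-coding gene around a summit, or otherwise the shortest gene, and intron order followed the canonical transcript. Replicates were matched at 150 bp to the nearest summit, whose signal is printed; 7 members recovered in both top lists have a weaker region nearer by. Overlapping member regions merge into 602 stretches. With a single group no comparison between conditions was possible, and no test was run. Named genes follow a rule on rank, number of members, distance, intron length and gene list. One gene list is not reported here. Members, lists and the rule were chosen with earlier results of these data known. The position rule, the matching and the word search were tested on simulated data and returned every planted answer. Qualifying test positions were drawn with the same coding of the annotation, and a direct search of the genes gave the same classes. The word was planted in windows of A and T alone, where no stray copy could arise. Alternatives were other TSS distances, transcripts, windows, match distances, the 860 strongest peaks and each replicate alone, and 7 were added after seeing the data. The dm3 lists were not used. Python 3.11.15, numpy 2.4.6, pandas 2.3.3, scipy 1.17.1 and matplotlib 3.10.9 were used.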

Additional observations from a re-analysis of the deposited data

How the results depend on the processing

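Of 59 alternatives, 23 kept their value within the spread of the replicates or, for counts, within 1.5 times, and no comparison between conditions exists that could reverse. Beyond 5000 bp from a TSS, in place of 2000 bp, there were 340 peaks in 220 hosts, the density ratio was 0.468, the median peak stood at the 36.1 percentile of joint signal, first introns held 38.8%, the median intron was 19552 bp and TSS distance 8664 bp, 60% were recovered in both replicates and the Spearman rho was 0.421. Beyond 1000 bp the density ratio was 0.718, the first intron share 50.2%, the median intron 12654 bp and the TSS distance 3680 bp. Among the 860 strongest IDR peaks these were 103 peaks, 87 hosts, a ratio of 0.387, the 36.0 percentile, 47.2%, 12520 bp, 4460 bp, 100% recovered and 65.0% with the word. The complete joint list gave 7433 regions. With the longest transcript the first intron share was 40.8% and the median intron 17848 bp, and counting a first intron in any transcript 59.8%. Matching within 75 bp recovered 56.7%. A 50 bp window put 7 motifs at 1.5 times the flanks or more, against 2, and put the word at 21.0% of summits, against 67.1% within 150 bp. Leaving out each replicate in turn, the density ratio ranged from 0.576 to 0.637, the first intron share from 44.2 to 44.7%, the median intron from 14710 to 15830 bp, the TSS distance from 5258 to 5403 bp, and the word from 52.2 to 53.2%. The cause of these shifts was not tested. Read depth is unknown, which limits any statement on weak regions.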

Other observations

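Chromosome 4, the small and largely heterochromatic chromosome, had no deep intronic peak. It carried 40 IDR peaks, and its 0.429 Mb of qualifying sequence would hold 6.47 summits at the mean density.

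The word CAGTG did not follow the strand of the host gene. Within 110 bp of the summits, 260 copies were on the host's sense strand and 261 on the other. Annotated transposable elements held 2 of the 624 summits.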
